A study of Mus musculus with 17 samples.

Results

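The ribosome biogenesis genes described here are a named list of 48 mouse genes whose products transcribe ribosomal RNA, modify and cut it, and assemble it with ribosomal proteins in the nucleolus. The list was applied to a count table of 48820 Ensembl genes, and 47 of the 48 genes were matched by identifier. The identifier of Riok2, a kinase of late small subunit assembly, was not matched to a row of the table, so Riok2 was not analysed here. All 47 matched genes passed the filter on low counts. None was at 0 in any library, and the lowest count of any member was 7 reads, for Rrp9.

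The counts come from 17 libraries of bulk RNA from mouse epidermis, each made from 1000 sorted cells of C57BL/6 mice aged 3 months. The study concerns Pelo, which encodes the ribosome rescue factor Pelota, a protein that takes apart ribosomes stalled on a messenger RNA. The mutant mice, labelled Pelo -/-, carried 2 floxed Pelo alleles (Pelo fl/fl), and the controls, labelled WT, carried 1 (Pelo fl/+). Every mouse in both groups also carried an EGFP-CreERT2 knock-in at Lrig1, Lgr6 or Lgr5 and was treated with 4-OHT (4-hydroxytamoxifen), which activates the recombinase. GFP+ cells were sorted, so the sort and the deletion both rested on cells in which that 1 gene was active. The libraries were 3 Pelo -/- and 2 WT from Lrig1 cells, 3 Pelo -/- and 3 WT from Lgr6 cells, and 3 Pelo -/- and 3 WT from Lgr5 cells. Lrig1 marks stem cells of the junctional zone of the upper hair follicle, Lgr6 marks those of the isthmus and interfollicular epidermis, and Lgr5 marks those of the lower bulge and hair germ. No label says whether replicates came from separate animals, so the p-values below measure the spread between these libraries.

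Making a ribosome begins when RNA polymerase I transcribes the ribosomal DNA into one long precursor. Small nucleolar ribonucleoproteins (snoRNPs) methylate and pseudouridylate it, the small subunit processome folds and cleaves its leading part, and separate sets of assembly factors carry the small and the large subunit out to the cytoplasm. In skin and elsewhere the pathway is known to follow growth and Myc activity, and quiescent cells, such as those of the resting bulge, are known to run it at a low rate.

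Total counts ran between 9647507 and 28098841 per library. The Lgr5 libraries stood apart from the others before any member was considered. Satellite-like predicted genes took 0.237% to 2.83% of the counts in the Lrig1 and Lgr6 libraries, against 1.72% to 25.4% in the Lgr5 libraries. The highest of these shares was in WT Lgr5 replicate 3, which also had the smallest total. The composition factors that edgeR's TMM method assigned were 0.688 to 0.964 in the Lrig1 and Lgr6 libraries and 0.99 to 1.91 in the Lgr5 libraries, so values below depend on that scaling. All levels below are CPM, read counts scaled to library size with these factors. Lgr5 mRNA itself was at 0.0531 to 29.4 CPM in the Lrig1 and Lgr6 libraries and at 276 to 570.0 CPM in the Lgr5 libraries. Lgr6 mRNA overlapped between WT sorts, with 109 and 58.3 CPM in Lrig1 and 159, 79.4 and 197 CPM in Lgr6 libraries. In Pelo -/- mice it was highest in Lgr6 libraries, at 180, 120 and 158 CPM, against 106, 77.3 and 100 CPM in Lrig1 and 108, 42.1 and 81.9 CPM in Lgr5 libraries. Lrig1 mRNA did not single out the Lrig1 sort. It had 37.7, 7.42 and 11.6 CPM in Pelo -/- Lrig1 and 39.3, 58.8 and 48 CPM in Pelo -/- Lgr6 libraries. In WT mice it had 39.3 and 41.7 CPM in Lrig1 and 46.5, 45.3 and 60 CPM in Lgr6 libraries. Pelo counts were 3.82, 0.483 and 0.857 CPM in Pelo -/- Lrig1 libraries and 6.05 and 3.72 CPM in WT Lrig1 libraries. In Lgr6 cells they were 3.1, 4.94 and 4.2 CPM in Pelo -/- and 4.12, 5.39 and 2.02 CPM in WT libraries, and in Lgr5 cells 11.8, 23.6 and 15.1 CPM in Pelo -/- and 17.4, 5.9 and 17.3 CPM in WT libraries. The genotypes overlapped in all 3 populations. Which part of Pelo is deleted, and whether the counts cover it, no source used here says, so these values check nothing about the labels.

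The members sat at a moderate level overall and were lower in every Lgr5 library than in any other. Their mean log2 CPM was 5.52, 5.52 and 5.21 in Pelo -/- Lrig1 libraries and 5.40 and 5.47 in WT Lrig1 libraries. In Lgr6 cells it was 5.48, 5.37 and 5.41 in Pelo -/- libraries and 5.31, 5.74 and 5.44 in WT libraries. In Lgr5 cells it was 4.80, 4.26 and 4.18 in Pelo -/- libraries and 4.46, 4.98 and 3.52 in WT libraries. As a plain share of all counts, with no composition factor, the members took 0.277% to 0.371% in the Lrig1 and Lgr6 libraries and 0.161% to 0.350% in the Lgr5 libraries, and these ranges overlap. The lowest value on both scales was that of WT Lgr5 replicate 3. In bulk samples, fewer cells of a type and less RNA per cell cannot be told apart.

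**Figure D1:**
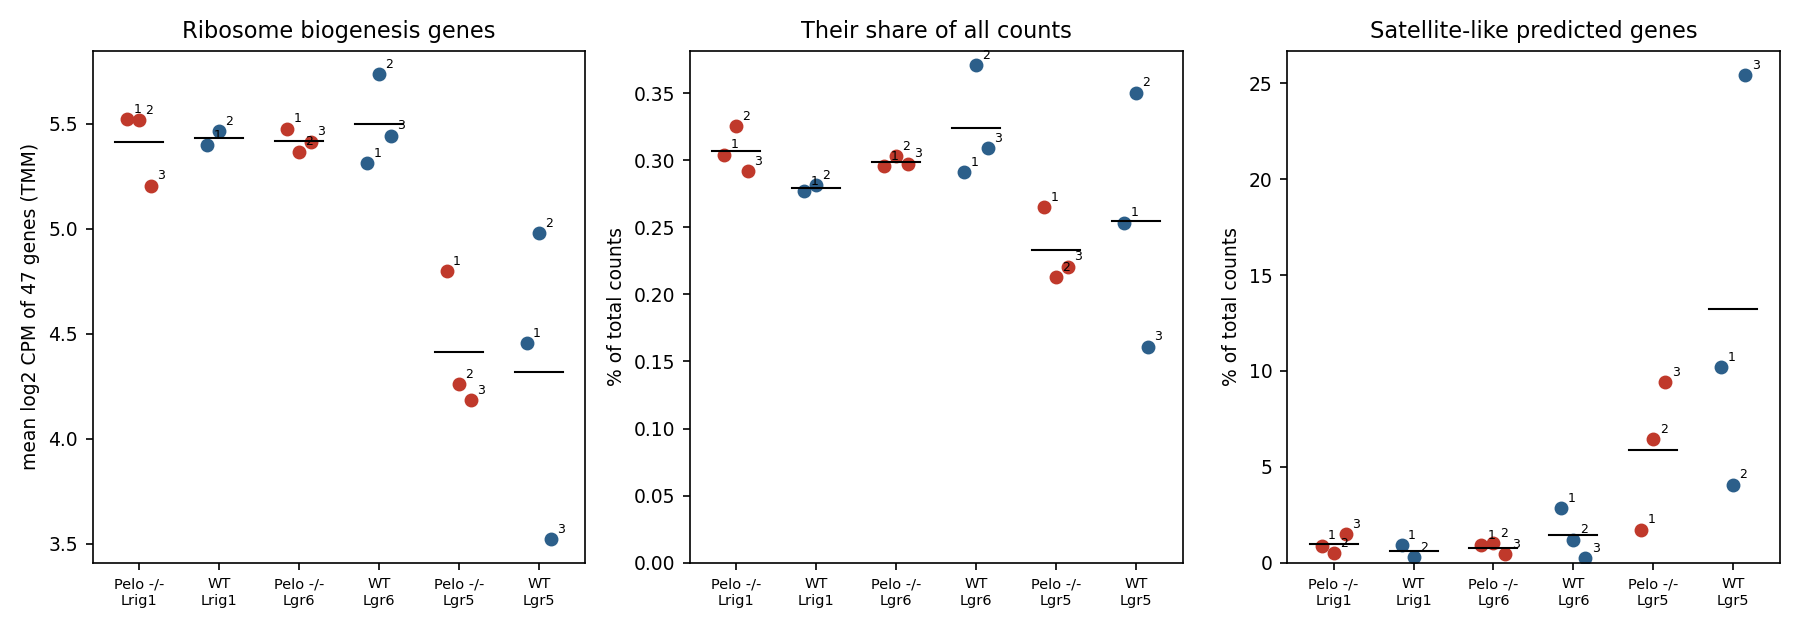
Each point is 1 library, labelled with its replicate number, and the line is the group mean. The left panel plots the mean log2 CPM of the 47 genes, the middle panel their share of total counts in percent, and the right panel the share of counts on satellite-like predicted genes. The 6 Lgr5 libraries lie lowest in the left panel (3.52 to 4.98) and overlap the others in the middle one.

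Levels can be compared between members per kilobase of exon. On that scale Nop10, a small protein of the box H/ACA snoRNP, was highest at 283 CPM per kb (mean of the 6 group means), followed by the nucleolar chaperone Npm1 at 217 CPM per kb. Nhp2 at 60.8 and Sbds at 58.1 CPM per kb came next and overlapped each other across libraries, at 3.04 to 125 for Nhp2 and 16.5 to 92.7 CPM per kb for Sbds. The lowest 3 were Tsr1 at 1.53, Polr1a at 1.52 and Rrp1b at 1.42 CPM per kb, and their ranges across libraries overlapped as well. The Tsr1 value is uncertain, because 32.3% of its exonic bases lie opposite exons of Srr and no source used here says whether counting used strand. In addition, 7 members contain 21 annotated snoRNA genes, and whether reads from these entered the members' counts is not known from the labels.

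Between replicates of 1 group, the median standard deviation of log2 CPM was 0.618 over the 47 members and 0.588 over 5781 genes of like level. Within the Lgr5 groups it was 0.864 for the members and 0.723 for the genes of like level. Within the Lrig1 and Lgr6 groups it was 0.382 for the members and 0.427 for the genes of like level. Sbds, with 0.247, Gnl2, with 0.248, and Riok1, with 0.298, were the steadiest. Rrp9, a protein of the small subunit processome, with 1.30, and Nop16, a large subunit factor, with 1.17, were the most variable. Rrp1b followed with 1.09 and Bop1 with 1.04. Deviations from the group means were positively correlated in 78.3% of the 1081 pairs of members, with a median coefficient of 0.275. That is a description across 17 libraries that share depth and composition within each library.

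Most members were higher in value in Lrig1 and Lgr6 cells than in Lgr5 cells, and Sbds, Nhp2 and Nop16 rose in both populations and both genotypes by edgeR. In Pelo -/- mice, 8 of 47 members (17%) rose in Lrig1 cells relative to Lgr5 cells, at an adjusted p below 0.05 in edgeR's quasi-likelihood test over 30405 genes. Across all genes tested 5.77% were called higher, and among the 10925 genes with a mean of at least 5 CPM, a level that 46 of the 47 members reach, 15.1% were. In Lgr6 cells 10 of 47 (21.3%) rose, with 7.23% of all genes and 18.8% of those of at least 5 CPM. No member fell in either, where 2.08% and 2.72% of all genes did. In sign alone 43 members were higher in value in Lrig1 and 41 in Lgr6 cells, where 36.6% and 37.4% of all genes were, and 66.7% and 67% of the genes of at least 5 CPM. At an unadjusted p of 0.05, 19 and 20 members were higher and 0 lower, against 12% and 13.3% of all genes higher and 11.3% and 11.2% lower. Among the genes of at least 5 CPM, 28.9% and 31.6% were higher at that p, and 8.05% and 9.24% lower. The groups did not overlap for 23 and 27 members, all higher, against 14.3% and 15.5% of all genes higher and 17.8% and 17.3% lower. Among the genes of at least 5 CPM, 34% and 36.5% did not overlap and were higher, and 11.1% and 12.3% were lower. The members' medians were 0.89 in both comparisons, against 0.46 and 0.51 for genes of at least 5 CPM.

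The contrasts in WT mice share no library with those in Pelo -/- mice. In WT mice, 9 of the 47 members (19.1%) rose in Lrig1 cells relative to Lgr5 cells and 0 fell. Across all genes tested, 9.09% were called higher and 1.99% lower. Among the genes with a mean of at least 5 CPM 24.1% were called higher, so the members' share was no larger than that of genes at such levels. In WT Lgr6 cells 11 of 47 (23.4%) rose relative to WT Lgr5 cells and 0 fell, against 10.6% called higher and 1.57% lower among all genes and 27.9% higher among the genes of at least 5 CPM. The medians of the members' log2 fold changes were 0.87 for Lrig1 and 1.07 for Lgr6 over Lgr5. Over the genes of at least 5 CPM they were 0.75 and 0.79, and over all genes tested -0.99 and -0.49. In sign alone, 40 of 47 members were higher in value in WT Lrig1 and 42 in WT Lgr6 cells, where 35.3% and 39.6% of all genes were, and 71.4% and 73.3% of those of at least 5 CPM. At an unadjusted p of 0.05, 18 and 26 members were higher and 0 lower in either, against 14.9% and 16.6% of all genes higher and 13.6% and 7.14% lower. Of the genes of at least 5 CPM, 37.4% and 40.5% were higher at that p, and 6.48% and 6.66% lower. The groups did not overlap for 27 members in Lrig1 and 25 in Lgr6, all higher, against 19.7% and 17.2% of all genes higher and 25.4% and 12.6% lower. Of the genes of at least 5 CPM, 46.2% and 40.5% did not overlap and were higher, and 9.6% and 6.74% were lower. Within 1 genotype the Lrig1 and the Lgr6 contrast share their Lgr5 libraries, so they are not independent of each other. Of the calls for Lrig1, 3 genes were shared between genotypes, which is 37.5% of the Pelo -/- calls and 33.3% of the WT calls. Of the calls for Lgr6, 5 were shared, 50% of the Pelo -/- calls and 45.5% of the WT calls. By edgeR, Sbds, Nhp2 and Nop16 were called in all 4 contrasts, 19 members in at least 1, and 28 in none. In sign alone, 34 of the 47 were higher in value in all 4 contrasts.

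Scaling changed these counts, and so did leaving out single libraries. With total counts in place of TMM factors, the calls dropped to 3 for Lrig1 and 2 for Lgr6 in Pelo -/- mice and to 2 for Lrig1 and 4 for Lgr6 in WT mice, and the WT Lrig1 median turned to -0.076. That scaling shifted the median of all genes in the WT Lrig1 contrast, to -2 in place of -0.99, and the share of all called genes that were higher was 38.7% in place of 82.1%. That share was 43.7% in place of 73.5% for Pelo -/- Lrig1, 42.1% in place of 72.6% for Pelo -/- Lgr6 and 48.7% in place of 87.2% for WT Lgr6. Scaling by DESeq2's method (RLE) gave 66.2% and 63.5% for Lrig1 and Lgr6 in Pelo -/- cells and 69.1% and 68.8% in WT cells. The Pelo -/- Lrig1 count was 5 without Pelo -/- Lgr5 replicate 2, without Pelo -/- Lgr5 replicate 3 and without Pelo -/- Lrig1 replicate 1. The Pelo -/- Lgr6 count was 5 without Pelo -/- Lgr5 replicate 2 or 3 or Pelo -/- Lgr6 replicate 3, and 6 without Pelo -/- Lgr6 replicate 1 or 2. Without WT Lgr5 replicate 3, 4 members were called in WT Lrig1 and 4 in WT Lgr6 cells, with medians of 0.61 and 0.73. The WT Lrig1 count was also 4 without WT Lrig1 replicate 1 and 3 without replicate 2, and the WT Lgr6 count 6 without WT Lgr6 replicate 2 and 3 without replicate 3.

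Markers of cell types moved with the same contrasts, among them keratinocyte, upper follicle and bulge lists that mark cells like those sorted. Summed keratinocyte markers ran between 20763 and 31651 CPM in the Lrig1 and Lgr6 libraries and between 4628 and 12338 CPM in the Lgr5 libraries, and 6 of the 8 were called higher in each of the 4 contrasts. Summed melanocyte markers were at 12.7 to 39.5 CPM in the Lrig1 and Lgr6 libraries and at 64.1 to 334 CPM in the Lgr5 libraries. Of the 8 melanocyte markers, 1 was called lower in each WT contrast and 4 in each Pelo -/- contrast. The 7 fibroblast markers summed to 1.38 to 21.3 CPM outside and 35.2 to 67.5 CPM inside the Lgr5 libraries, with 1 of 7 called lower in each contrast. Mlana was at 0 in WT Lrig1 and Pelo -/- Lgr6 cells, Dcn at 0 in WT Lrig1 cells and Lum at 0 in Pelo -/- Lrig1 cells. Bulge and germ markers summed to 184 to 504 CPM in the Lrig1 and Lgr6 libraries and 1857 to 3283 CPM in the Lgr5 libraries, and upper follicle markers to 323 to 1209 CPM and 45.5 to 129 CPM. In the same order, Langerhans cell and macrophage markers summed to 144 to 434 and 47.6 to 146 CPM, T cell markers to 14 to 67.2 and 2.63 to 13.5 CPM, endothelial markers to 1.60 to 9.27 and 5.16 to 19.4 CPM, and Merkel and neural markers to 1.56 to 10.7 and 8.27 to 44.6 CPM. Epcam, with group means of 83.9 to 129 CPM, and Cd74 made up most of the Langerhans cell and macrophage sum. Thy1 made up most of the T cell sum outside the Lgr5 groups. Ptprc, Csf1r and Adgre1 had their highest means in the Lgr5 groups, with 4.45 and 3.23 CPM of Ptprc against 0.648 to 1.66 CPM elsewhere. In each contrast 1 of 8 markers of the first list and 1 of 6 tested of the second were called higher. The part of all these markers in the members' differences was not tested.

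**Figure D2:**
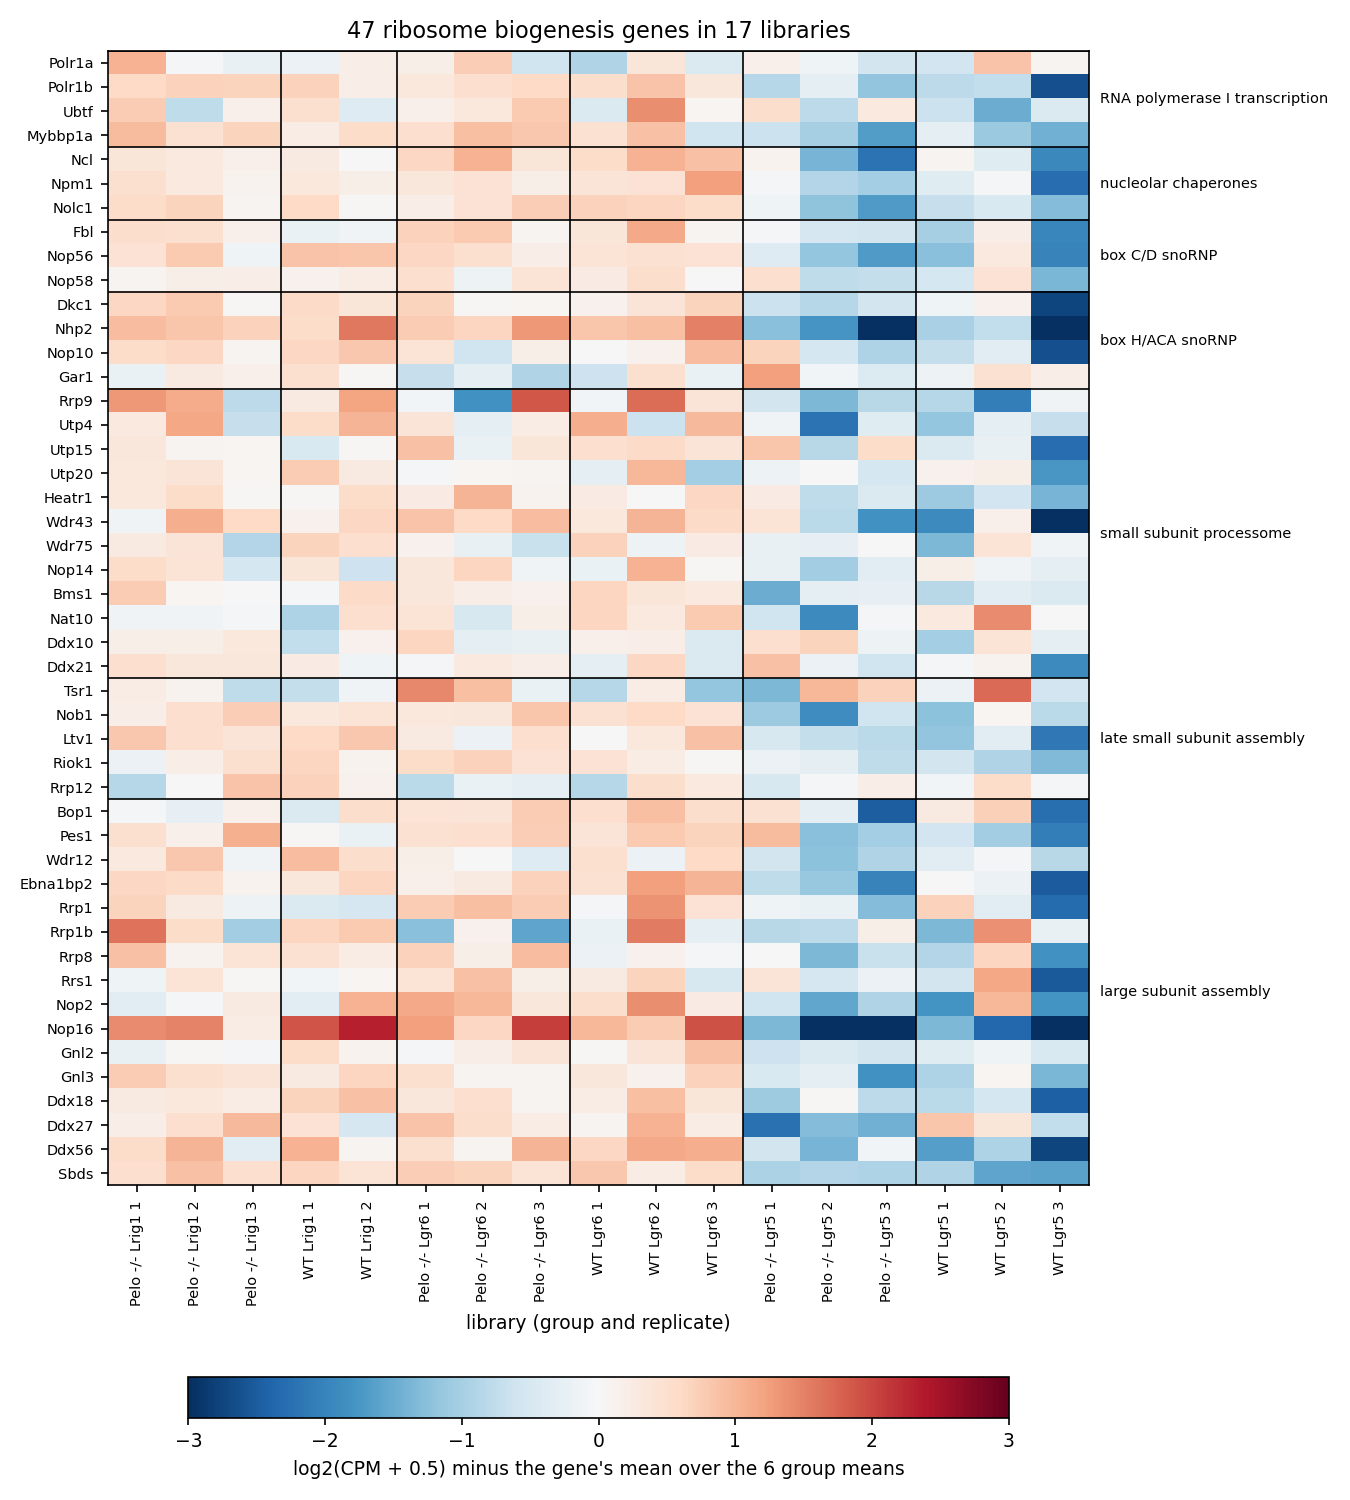
Rows are the 47 genes by role and columns are the 17 libraries. Color gives log2(CPM + 0.5) minus the gene's mean over the 6 group means, from blue (lower) to red (higher), with the scale ending at 3 in each direction. Nop16, Nhp2 and Sbds are blue in all 6 Lgr5 libraries, Gar1 and Ddx10 are not, and WT Lgr5 replicate 3 is the bluest column.

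Among the genes of RNA polymerase I transcription, Polr1b and Mybbp1a were called in at least 1 contrast by edgeR, while Polr1a and Ubtf were not. Polr1b is the second largest subunit of RNA polymerase I. Polr1b had 24.6, 26.2 and 26.1 CPM in Pelo -/- Lrig1 and 26.3 and 18.7 CPM in WT Lrig1 libraries, and 20.2, 22.9 and 24.6 CPM in Pelo -/- Lgr6 and 23.6, 29.3 and 20.6 CPM in WT Lgr6 libraries, against 8.74, 13.3 and 6.87 CPM in Pelo -/- Lgr5 and 9.19, 9.42 and 2.19 CPM in WT Lgr5 libraries. Every Lgr5 library lay below every other one. In Pelo -/- cells the log2 differences over Lgr5 cells were 1.41 ± 0.53 for Lrig1 and 1.23 ± 0.53 for Lgr6 (edgeR adjusted p = 0.104 and 0.147). The log2 difference of Lgr6 over Lgr5 was 1.82 ± 0.53 in WT cells (edgeR adjusted p = 0.0233), and that of Lrig1 over Lgr5 was 1.70 ± 0.57 (adjusted p = 0.056). The WT Lgr6 call was lost without WT Lgr5 replicate 3 or WT Lgr6 replicate 2 or 3. DESeq2 called Polr1b in both Lrig1 contrasts as well (adjusted p = 0.0243 in Pelo -/- and 0.0213 in WT cells).

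Mybbp1a encodes a nucleolar Myb-binding protein that associates with RNA polymerase I. Mybbp1a had 65.5, 46.3 and 54.4 CPM in Pelo -/- Lrig1 and 39.7 and 49.5 CPM in WT Lrig1 libraries, and 48.2, 63.4 and 59.2 CPM in Pelo -/- Lgr6 and 46.5, 62.3 and 22 CPM in WT Lgr6 libraries, against 21.6, 16.7 and 10.3 CPM in Pelo -/- Lgr5 and 27.5, 15.3 and 12.2 CPM in WT Lgr5 libraries. In Pelo -/- mice all Lrig1 and Lgr6 libraries were above all Lgr5 ones, and in WT mice 1 Lgr6 library, at 22.0 CPM, fell among the Lgr5 values. Mybbp1a rose in Pelo -/- Lrig1 cells by 1.77 ± 0.45 and in Pelo -/- Lgr6 cells by 1.81 ± 0.45 log2 units over Lgr5 cells (edgeR adjusted p = 0.0132 and 0.00902). Both calls were lost without Pelo -/- Lgr5 replicate 3, and the Lrig1 call also without Pelo -/- Lrig1 replicate 1. In WT cells the differences were 1.28 ± 0.48 and 1.25 ± 0.44 (adjusted p = 0.0854 and 0.0671). Polr1a, the largest subunit of the polymerase, had a range of 8.83 to 35.4 CPM in the Lrig1 and Lgr6 libraries and 11.1 to 30.8 CPM in the Lgr5 libraries, so the populations overlapped throughout. Ubtf, which binds ribosomal DNA and recruits the polymerase, was at 16.2 to 74.4 CPM in the Lrig1 and Lgr6 libraries and at 9.55 to 40.5 CPM in the Lgr5 libraries.

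The nucleolar chaperones are abundant proteins that accompany ribosomal RNA and snoRNPs, and all 3 were higher in value in each of the 4 contrasts. Npm1 had 723, 641 and 560.3 CPM in Pelo -/- Lrig1 and 648 and 587 CPM in WT Lrig1 libraries, and 659, 707 and 587 CPM in Pelo -/- Lgr6 and 683, 699 and 1224 CPM in WT Lgr6 libraries, against 503, 284 and 255 CPM in Pelo -/- Lgr5 and 406, 499.6 and 106 CPM in WT Lgr5 libraries. The Lgr5 libraries were the lowest 6 of the 17. Npm1, nucleophosmin, rose in WT Lgr6 cells over WT Lgr5 cells by 1.36 ± 0.43 log2 units (edgeR adjusted p = 0.0351). The call was lost without any 1 of WT Lgr5 replicate 1 or 3 or WT Lgr6 replicate 3. The other 3 contrasts gave 0.89 for Pelo -/- Lrig1, 0.91 for Pelo -/- Lgr6 and 0.87 for WT Lrig1, none of them past the threshold.

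Ncl had 351, 334 and 302 CPM in Pelo -/- Lrig1 and 328 and 268 CPM in WT Lrig1 libraries, and 413, 558 and 347 CPM in Pelo -/- Lgr6 and 398, 562 and 495 CPM in WT Lgr6 libraries, against 293, 102 and 58.1 CPM in Pelo -/- Lgr5 and 285, 210.0 and 70.6 CPM in WT Lgr5 libraries. For this gene, nucleolin, 1 Pelo -/- and 1 WT Lgr5 library reached the lowest Lrig1 values. Ncl rose in Pelo -/- Lgr6 cells over Pelo -/- Lgr5 cells by 1.54 ± 0.48 (edgeR adjusted p = 0.0412). The call was lost with DESeq2, RLE scaling, a minimum mean of 5 CPM, the compared groups alone or total counts. It was also lost without Pelo -/- Lgr5 replicate 2 or 3 or Pelo -/- Lgr6 replicate 1, 2 or 3. The main edgeR fit did not call Ncl in the other 3 contrasts. For WT Lgr6 cells it was called by limma-voom (adjusted p = 0.00953), with a replicate block (0.0153) and with no filter on low counts (0.0274), and for Pelo -/- Lrig1 cells by limma-voom (0.0443). Nolc1 had 58.8, 63.3 and 41.7 CPM in Pelo -/- Lrig1 and 60.3 and 40.4 CPM in WT Lrig1 libraries, and 45.5, 53.7 and 66.8 CPM in Pelo -/- Lgr6 and 64, 62.7 and 58.3 CPM in WT Lgr6 libraries, against 36.1, 16.9 and 11.9 CPM in Pelo -/- Lgr5 and 24.3, 28.8 and 15.9 CPM in WT Lgr5 libraries. Here all Lgr5 libraries were below all others. Nolc1, a snoRNP chaperone, rose in Lgr6 over Lgr5 cells in both genotypes, by 1.36 ± 0.42 in Pelo -/- and 1.42 ± 0.42 in WT cells (edgeR adjusted p = 0.0407 and 0.0257). Both were lost with RLE scaling, a minimum mean of 5 CPM, no filter on low counts, the compared groups alone or total counts. The Pelo -/- call was also lost without Pelo -/- Lgr5 replicate 2 or 3 or Pelo -/- Lgr6 replicate 1, 2 or 3. The WT call was also lost with DESeq2 and without any 1 of the 6 WT libraries compared. In Pelo -/- Lrig1 cells DESeq2 and limma-voom called Nolc1 (adjusted p = 0.0313 and 0.0366).

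Of the 3 core proteins of the box C/D snoRNPs, which guide methylation of ribosomal RNA, only Nop56 was called by edgeR, in 2 of the 4 contrasts. Nop56 had 104, 131 and 70.0 CPM in Pelo -/- Lrig1 and 138 and 137 CPM in WT Lrig1 libraries, and 118, 107 and 88.2 CPM in Pelo -/- Lgr6 and 102, 105 and 104 CPM in WT Lgr6 libraries, against 58.4, 34 and 23.1 CPM in Pelo -/- Lgr5 and 32, 93.4 and 18.6 CPM in WT Lgr5 libraries. WT Lgr5 replicate 2, at 93.4 CPM, lay among the Lrig1 and Lgr6 values, and the other Lgr5 libraries lay below them. Nop56 rose by 1.44 ± 0.46 in Pelo -/- Lgr6 over Lgr5 cells (edgeR adjusted p = 0.0468) and by 1.52 ± 0.50 in WT Lrig1 over Lgr5 cells (adjusted p = 0.0486). Both calls were lost with DESeq2, RLE scaling, a minimum mean of 5 CPM or total counts, and the WT call also with the compared groups alone. The Pelo -/- call was lost without Pelo -/- Lgr5 replicate 2 or 3 or Pelo -/- Lgr6 replicate 1, 2 or 3. The WT call was lost without WT Lgr5 replicate 1 or 3 or WT Lrig1 replicate 1 or 2. Fbl, the methyltransferase of the particle, was at 26 to 66.3 CPM in the Lrig1 and Lgr6 libraries and 7.27 to 34 CPM in the Lgr5 libraries, and Nop58 at 81.1 to 132 CPM against 34.6 to 129.8 CPM. Neither was called by edgeR. In WT Lgr6 over WT Lgr5 cells, Fbl was called by limma-voom (adjusted p = 0.0449) and with a replicate block (0.0433), and so was Nop56 (0.0274 and 0.0452). Nop56 was also called in Pelo -/- Lrig1 cells by limma-voom (adjusted p = 0.041), with the block (0.0418), with no filter (0.0352) and with protein-coding genes alone (0.0473).

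The box H/ACA snoRNPs, which convert uridine to pseudouridine, held members at opposite ends of the list. Nhp2 had 91.3, 85.4 and 77.2 CPM in Pelo -/- Lrig1 and 70.4 and 143 CPM in WT Lrig1 libraries, and 81.4, 74.7 and 118 CPM in Pelo -/- Lgr6 and 84.9, 89.7 and 137 CPM in WT Lgr6 libraries, against 19.6, 13.7 and 3.49 CPM in Pelo -/- Lgr5 and 23.9, 28.3 and 4.43 CPM in WT Lgr5 libraries. The lowest Lrig1 or Lgr6 value was 70.4 CPM and the highest Lgr5 value 28.3 CPM. Nhp2, a core protein of the particle, rose in all 4 contrasts. The log2 differences were 2.79 ± 0.58 for Lrig1 and 2.90 ± 0.58 for Lgr6 over Lgr5 in Pelo -/- cells (edgeR adjusted p = 0.00309 and 0.00167). In WT cells they were 2.50 ± 0.61 and 2.46 ± 0.57 (adjusted p = 0.00704 and 0.00423). Both Pelo -/- calls held under every alternative run, and the WT calls were lost only without WT Lrig1 replicate 2 (adjusted p = 0.276) and without WT Lgr6 replicate 3 (adjusted p = 0.0763).

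Of the other 3 proteins of the particle, the main edgeR fit called only Nop10, in 1 contrast. Nop10 and Dkc1 were higher in value in all 4 contrasts, and Gar1 in 1. Nop10 had 404, 424 and 290.1 CPM in Pelo -/- Lrig1 and 425 and 486 CPM in WT Lrig1 libraries, and 368, 183 and 310.4 CPM in Pelo -/- Lgr6 and 273, 301 and 525 CPM in WT Lgr6 libraries, against 438, 192 and 146 CPM in Pelo -/- Lgr5 and 169, 221 and 44.2 CPM in WT Lgr5 libraries. In Pelo -/- mice the Lgr5 libraries overlapped the others, and in WT mice they did not. Nop10 rose in WT Lrig1 over WT Lgr5 cells by 1.66 ± 0.52 (edgeR adjusted p = 0.0386). The call was lost with DESeq2, RLE scaling, a minimum mean of 5 CPM, the compared groups alone or total counts. It was also lost without WT Lgr5 replicate 1 or 3 or WT Lrig1 replicate 1 or 2. In Pelo -/- cells the same difference of Nop10 was 0.53 ± 0.47 (edgeR adjusted p = 0.485). In WT Lgr6 cells the main edgeR fit did not call it. There it was called by limma-voom (adjusted p = 0.0217), and by edgeR with a replicate block (0.0482) and with no filter on low counts (0.0387). Dkc1, the pseudouridine synthase, was at 82 to 138 CPM in the Lrig1 and Lgr6 libraries and 11.4 to 88.4 CPM in the Lgr5 libraries and was not called by edgeR. With the compared groups alone it was called in Pelo -/- Lrig1 cells (1.03, adjusted p = 0.0464). Gar1 was at 5.31 to 14.8 CPM in the Lrig1 and Lgr6 libraries and 7.73 to 24.9 CPM in the Lgr5 libraries. Its log2 difference of Lgr6 over Lgr5 in Pelo -/- cells was -1.08 ± 0.60 by edgeR (adjusted p = 0.261), and it was called lower there by DESeq2 (-1.27, adjusted p = 0.0419) and with a minimum mean of 5 CPM (-1.56, adjusted p = 0.0423).

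None of the 12 members of the small subunit processome, the largest particle of the pathway, was called by edgeR in any of the 4 contrasts. Wdr43, 1 of the 12, was called by limma-voom in both WT contrasts, with 2.09 in Lrig1 and 2.34 in Lgr6 cells (adjusted p = 0.0418 and 0.0127), and for WT Lgr6 with a replicate block (1.97, adjusted p = 0.0324). The group's median log2 difference was 0.59 for Lrig1 and 0.78 for Lgr6 over Lgr5 in Pelo -/- cells, and 0.79 and 0.73 in WT cells. Bms1, a GTPase of the processome, was the 1 member of the group whose Lgr5 libraries all lay below the others. Bms1 had 49.9, 30.6 and 29.4 CPM in Pelo -/- Lrig1 and 28.4 and 43.6 CPM in WT Lrig1 libraries, and 37.4, 33.5 and 32.2 CPM in Pelo -/- Lgr6 and 46, 37.8 and 36 CPM in WT Lgr6 libraries, against 10.1, 24.2 and 24.5 CPM in Pelo -/- Lgr5 and 16.2, 23.4 and 21.4 CPM in WT Lgr5 libraries. Its differences were 0.90 ± 0.43 for Lrig1 and 0.81 ± 0.43 for Lgr6 in Pelo -/- cells and 0.82 ± 0.47 and 0.97 ± 0.43 in WT cells (edgeR adjusted p between 0.159 and 0.24). Heatr1, whose yeast counterpart Utp10 binds early, was at 18.9 to 39.4 CPM in the Lrig1 and Lgr6 libraries and at 7 to 22.9 CPM in the Lgr5 libraries. Utp20, a large scaffold protein, was at 12.7 to 53.7 CPM in the Lrig1 and Lgr6 libraries and at 7.55 to 29.9 CPM in the Lgr5 libraries. The helicases Ddx10 and Ddx21 overlapped between populations over most of their range.

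Among the late small subunit factors, which act on the particle as it leaves the nucleus, Nob1, Ltv1 and Riok1 were called by edgeR and Rrp12 and Tsr1 were not. Nob1 had 48.1, 59.7 and 70.2 CPM in Pelo -/- Lrig1 and 52.7 and 56.1 CPM in WT Lrig1 libraries, and 52.6, 53.3 and 74.8 CPM in Pelo -/- Lgr6 and 57.9, 63.7 and 56.8 CPM in WT Lgr6 libraries, against 19.4, 11.2 and 27.4 CPM in Pelo -/- Lgr5 and 17.4, 43.7 and 23.8 CPM in WT Lgr5 libraries. Nob1 is the endonuclease that makes the last cut of the small subunit RNA, and its Lgr5 values were all below the others. It rose in Pelo -/- cells by 1.62 ± 0.42 in Lrig1 and 1.64 ± 0.42 in Lgr6 over Lgr5 (edgeR adjusted p = 0.0148 and 0.011), with 0.94 and 1.07 in WT cells. The Lrig1 call was lost without Pelo -/- Lgr5 replicate 2 or Pelo -/- Lrig1 replicate 3, and the Lgr6 call without Pelo -/- Lgr5 replicate 2 or Pelo -/- Lgr6 replicate 3. Ltv1 had 56.7, 46.3 and 42.5 CPM in Pelo -/- Lrig1 and 49.3 and 57 CPM in WT Lrig1 libraries, and 39, 28.7 and 46.3 CPM in Pelo -/- Lgr6 and 31.8, 40.4 and 59.4 CPM in WT Lgr6 libraries, against 23.1, 19.5 and 18.2 CPM in Pelo -/- Lgr5 and 14, 25.8 and 6.94 CPM in WT Lgr5 libraries. Ltv1, whose release is a step of small subunit maturation, again had its 6 lowest values in the Lgr5 libraries. It rose in WT cells, by 1.77 ± 0.48 in Lrig1 and 1.49 ± 0.45 in Lgr6 over Lgr5 (edgeR adjusted p = 0.0161 and 0.0264). The Lrig1 call of Ltv1 was lost without WT Lgr5 replicate 3 or WT Lrig1 replicate 1 or 2. Its Lgr6 call was lost without WT Lgr5 replicate 1 or 3 or WT Lgr6 replicate 3. Both were lost with the compared groups alone or total counts. The Lgr6 call was also lost with RLE scaling, a minimum mean of 5 CPM or no filter on low counts.

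Riok1, an atypical kinase, had 53.6 and 36.7 CPM in WT Lrig1 libraries against 22.9, 17.9 and 13.4 CPM in WT Lgr5 libraries, which did not overlap. It rose there by 1.32 ± 0.43 (edgeR adjusted p = 0.0453), and this did not hold without WT Lgr5 replicate 2 or 3 or WT Lrig1 replicate 1 or 2. Tsr1, a GTPase-like assembly factor, ran the other way in value in WT cells, with 2.76 and 4.4 CPM in Lrig1 and 2.45, 5.69 and 1.86 CPM in Lgr6 libraries, against 4.19, 16.9 and 3.06 CPM in Lgr5 libraries. These overlap, and the log2 difference of Lgr6 over Lgr5 was -1.27 ± 0.84 (adjusted p = 0.374).

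The widest difference of any member was that of Nop16, 1 of the 16 large subunit factors. The median difference of these 16 was 1.11 for Lrig1 and 1.06 for Lgr6 in Pelo -/- cells, and 0.90 and 0.97 in WT cells. In none of the 4 contrasts was it the highest median of the role groups. Nop16 had 106, 111 and 46.3 CPM in Pelo -/- Lrig1 and 148 and 203 CPM in WT Lrig1 libraries, and 93.4, 61.4 and 168 CPM in Pelo -/- Lgr6 and 79.8, 67.2 and 149 CPM in WT Lgr6 libraries, against 15.3, 3.55 and 2.15 CPM in Pelo -/- Lgr5 and 15.3, 7.37 and 0.929 CPM in WT Lgr5 libraries. The lowest Lrig1 or Lgr6 value was 46.3 CPM and the highest Lgr5 value 15.3 CPM. Nop16, a nucleolar protein of the early large subunit particle, rose by 3.65 ± 0.80 in Lrig1 and 3.94 ± 0.81 in Lgr6 over Lgr5 in Pelo -/- cells (edgeR adjusted p = 0.00642 and 0.00292). In WT cells it rose by 4.48 ± 0.86 and 3.65 ± 0.80 (adjusted p = 0.00136 and 0.00357). The Pelo -/- Lrig1 call was lost only when no filter on low counts was applied (adjusted p = 0.0551), and the other 3 held under every alternative run.

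Sbds had 145, 189 and 145 CPM in Pelo -/- Lrig1 and 159.8 and 137 CPM in WT Lrig1 libraries, and 171, 162 and 136 CPM in Pelo -/- Lgr6 and 179, 119.5 and 150.3 CPM in WT Lgr6 libraries, against 52.7, 55.6 and 53.4 CPM in Pelo -/- Lgr5 and 54.6, 34 and 33.6 CPM in WT Lgr5 libraries. All Lrig1 and Lgr6 libraries were at 119.5 to 189 CPM and all Lgr5 libraries at 33.6 to 55.6 CPM. Sbds, the protein of Shwachman-Diamond syndrome, releases Eif6 from the late large subunit so that it can join the small one. It rose by 1.56 ± 0.33 in Lrig1 and 1.54 ± 0.33 in Lgr6 over Lgr5 in Pelo -/- cells (edgeR adjusted p = 0.00337 and 0.00291), and by 1.86 ± 0.36 and 1.88 ± 0.34 in WT cells (adjusted p = 0.000827 and 0.000306). With total counts in place of TMM factors only the WT Lgr6 call remained, and no omission of 1 library ended any of the 4. Its partner Eif6 rose by 1.68 ± 0.38 and 2.21 ± 0.39 in Pelo -/- and by 2.58 ± 0.42 and 2.97 ± 0.40 in WT cells in the same order.

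**Figure D3:**
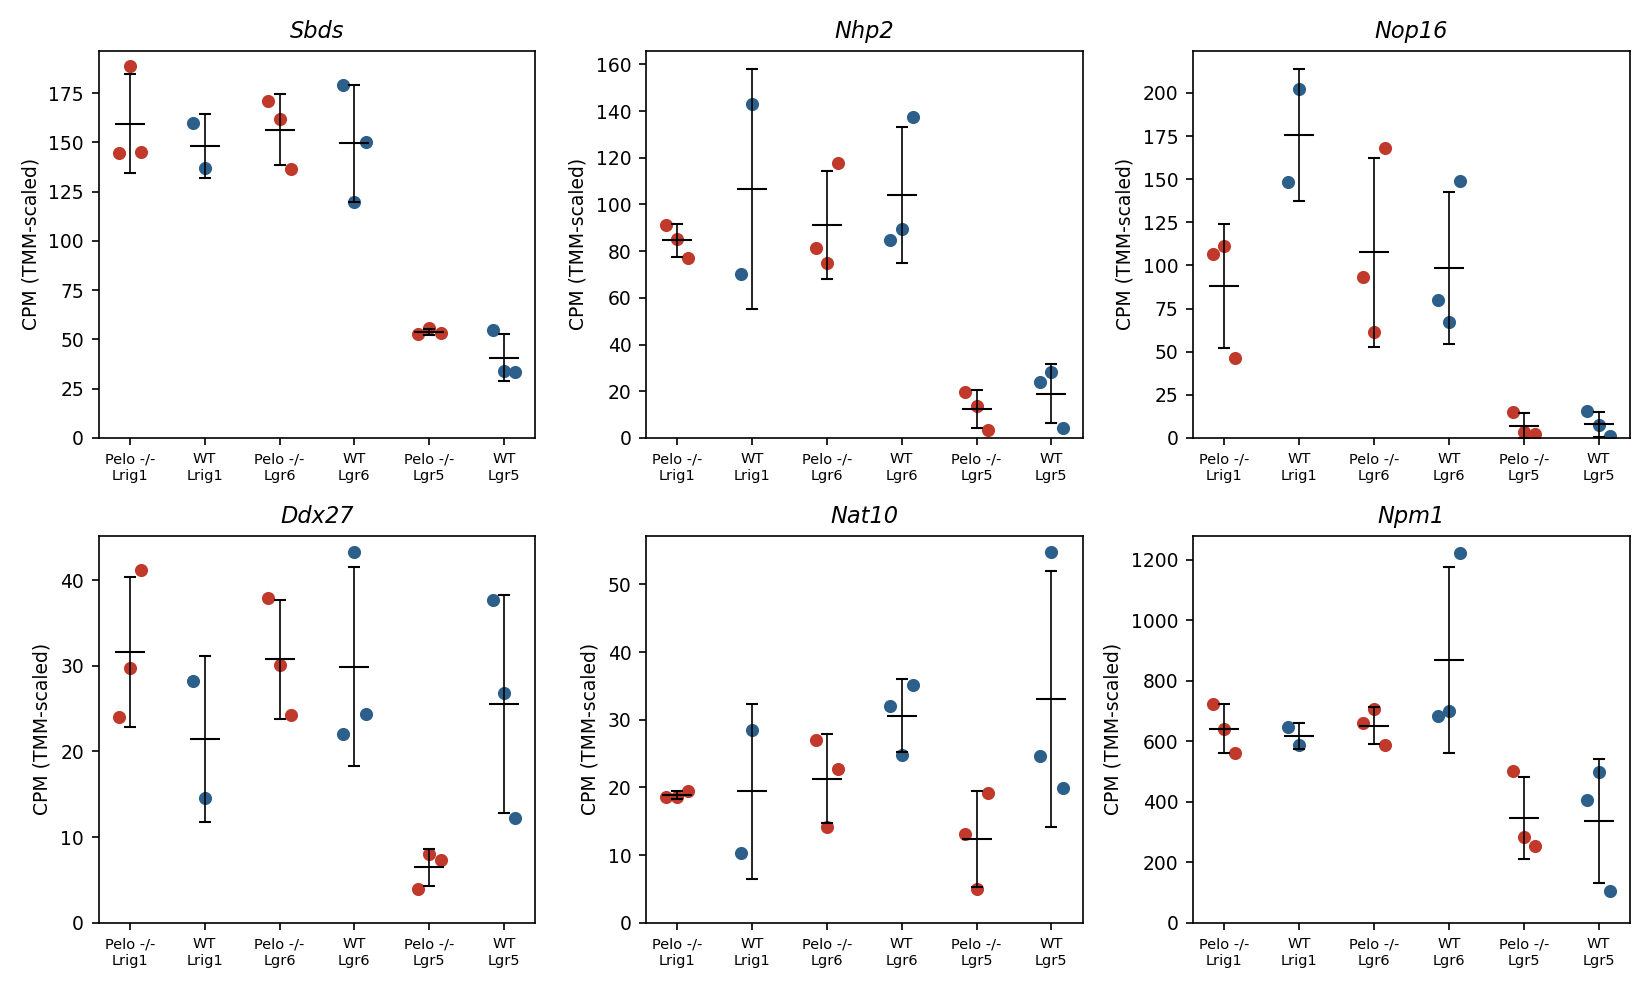
Each panel plots the CPM of 1 gene in the 17 libraries, with the group mean and standard deviation as bars, Pelo -/- in red and WT in blue. Sbds, Nhp2 and Nop16 lie lower in all 6 Lgr5 libraries than in any other. Ddx27 and Nat10 lie lower in the 3 Pelo -/- Lgr5 than in the 3 WT Lgr5 libraries.

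The 3 DEAD-box helicases of the large subunit differed in which genotype carried the call. Ddx56 had 31.9, 44.2 and 17.3 CPM in Pelo -/- Lrig1 and 44.8 and 22.9 CPM in WT Lrig1 libraries, and 30.5, 22.9 and 44 CPM in Pelo -/- Lgr6 and 33.6, 48.1 and 46.9 CPM in WT Lgr6 libraries, against 14.7, 7.94 and 20.3 CPM in Pelo -/- Lgr5 and 6.49, 11.1 and 2.79 CPM in WT Lgr5 libraries. In WT mice all Lrig1 and Lgr6 libraries were above the Lgr5 ones, and in Pelo -/- mice 1 Lrig1 library was below the highest Lgr5 one. Ddx56 rose in WT cells, by 2.32 ± 0.58 in Lrig1 and 2.66 ± 0.55 in Lgr6 over Lgr5 (edgeR adjusted p = 0.00807 and 0.00134). The Lrig1 call was lost with the compared groups alone, with total counts, and without WT Lgr5 replicate 3 or WT Lrig1 replicate 1. In Pelo -/- cells its differences were 1.12 ± 0.52 and 1.18 ± 0.52. Ddx18 had 56.7, 58.8 and 55.1 CPM in Pelo -/- Lrig1 and 75.6 and 87.5 CPM in WT Lrig1 libraries, and 60.3, 67.6 and 50.3 CPM in Pelo -/- Lgr6 and 55.6, 89.3 and 60.9 CPM in WT Lgr6 libraries, against 22.2, 48.5 and 27.2 CPM in Pelo -/- Lgr5 and 26.9, 32.9 and 8.2 CPM in WT Lgr5 libraries. Every Lgr5 value of Ddx18 was below every other value. Ddx18 rose in WT cells too, by 1.85 ± 0.48 and 1.60 ± 0.44 (edgeR adjusted p = 0.0104 and 0.0151), with 0.80 and 0.86 in Pelo -/- cells. Its Lrig1 call was lost without WT Lrig1 replicate 2, and its Lgr6 call without WT Lgr5 replicate 3 or WT Lgr6 replicate 2 or 3. Both were lost with the compared groups alone or total counts. The Lgr6 call was also lost with RLE scaling or a minimum mean of 5 CPM. Whether these genotypes differ is the interaction given further on, and none of the members passed it with edgeR.

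Ddx27 had 24, 29.8 and 41.2 CPM in Pelo -/- Lrig1 and 28.3 and 14.6 CPM in WT Lrig1 libraries, and 38, 30.1 and 24.2 CPM in Pelo -/- Lgr6 and 22.1, 43.2 and 24.4 CPM in WT Lgr6 libraries, against 3.99, 8.08 and 7.35 CPM in Pelo -/- Lgr5 and 37.7, 26.8 and 12.2 CPM in WT Lgr5 libraries. The 3 Pelo -/- Lgr5 libraries were the 3 lowest of the 17. Of the WT Lgr5 libraries, replicate 3 came next and the other 2 lay among the Lrig1 and Lgr6 values. Ddx27 rose in Pelo -/- cells, by 2.29 ± 0.52 in Lrig1 and 2.25 ± 0.52 in Lgr6 over Lgr5 (edgeR adjusted p = 0.00567 and 0.00484). In WT cells the differences were -0.25 ± 0.55 and 0.23 ± 0.49 (adjusted p = 0.746 and 0.782).

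Ebna1bp2 had 73, 70.1 and 50.5 CPM in Pelo -/- Lrig1 and 59.6 and 73.4 CPM in WT Lrig1 libraries, and 52.1, 57.1 and 76.3 CPM in Pelo -/- Lgr6 and 64.5, 111 and 96.2 CPM in WT Lgr6 libraries, against 27.4, 21.1 and 11.4 CPM in Pelo -/- Lgr5 and 47.3, 41.6 and 7.87 CPM in WT Lgr5 libraries. All Lgr5 libraries were below all others. Ebna1bp2, which binds early large subunit precursors, rose by 1.69 ± 0.49 in Lrig1 and 1.63 ± 0.49 in Lgr6 over Lgr5 in Pelo -/- cells, and by 1.49 ± 0.48 in WT Lgr6 cells (edgeR adjusted p = 0.0298, 0.0314 and 0.0423). The Pelo -/- Lrig1 call was lost without Pelo -/- Lgr5 replicate 2 or 3 or Pelo -/- Lrig1 replicate 1 or 2. The Pelo -/- Lgr6 call was lost without Pelo -/- Lgr5 replicate 2 or 3 or Pelo -/- Lgr6 replicate 1, 2 or 3. Total counts ended all of these calls. The WT call was lost without WT Lgr5 replicate 2 or 3 or WT Lgr6 replicate 2 or 3. DESeq2, RLE scaling, a minimum mean of 5 CPM, protein-coding genes alone and the compared groups alone also ended the WT call. Gnl3, nucleostemin, a GTPase of stem and cancer cells, was at 88.4 to 141 CPM in the Lrig1 and Lgr6 libraries and at 23.2 to 86.3 CPM in the Lgr5 libraries, again with no overlap, and edgeR called it in none of the 4. It was called for Pelo -/- Lrig1 cells by limma-voom (adjusted p = 0.026), with a replicate block (0.0427) and with protein-coding genes alone (0.0461).

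Pes1, Bop1 and Wdr12 form the PeBoW complex, which is needed to process large subunit RNA. Pes1 rose in WT Lgr6 over WT Lgr5 cells, with 41.7, 55.3 and 50.8 CPM in WT Lgr6 libraries against 21, 15.1 and 7.16 CPM in WT Lgr5 libraries, a log2 difference of 1.77 ± 0.52 (edgeR adjusted p = 0.0228). Wdr12 rose in Pelo -/- Lrig1 over Pelo -/- Lgr5 cells, with 56.1, 79.6 and 42.2 CPM in Pelo -/- Lrig1 libraries against 30.9, 19.1 and 24.2 CPM in Pelo -/- Lgr5 libraries, a difference of 1.26 ± 0.39 (adjusted p = 0.0471). Neither pair of groups overlapped. Both calls were lost with RLE scaling, that of Pes1 also without WT Lgr5 replicate 2 or 3 or WT Lgr6 replicate 2 or 3 and that of Wdr12 without Pelo -/- Lgr5 replicate 2 or 3 or Pelo -/- Lrig1 replicate 1 or 2. Bop1 had 14.1, 12.2 and 16.2 CPM in Pelo -/- Lrig1 against 19.9, 12 and 2.2 CPM in Pelo -/- Lgr5 libraries and was not called in any contrast by edgeR.

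In all, 12 of the 47 members had all 6 Lgr5 libraries below all 11 others, and 0 had them above. They were Polr1b, Npm1, Nolc1, Nhp2, Bms1, Nob1, Ltv1, Ebna1bp2, Nop16, Gnl3, Ddx18 and Sbds. The same held for 7.54% of all genes tested and for 19.7% of the genes of at least 5 CPM, and 2.38% of all genes lay above in the same way.

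**Figure D4:**
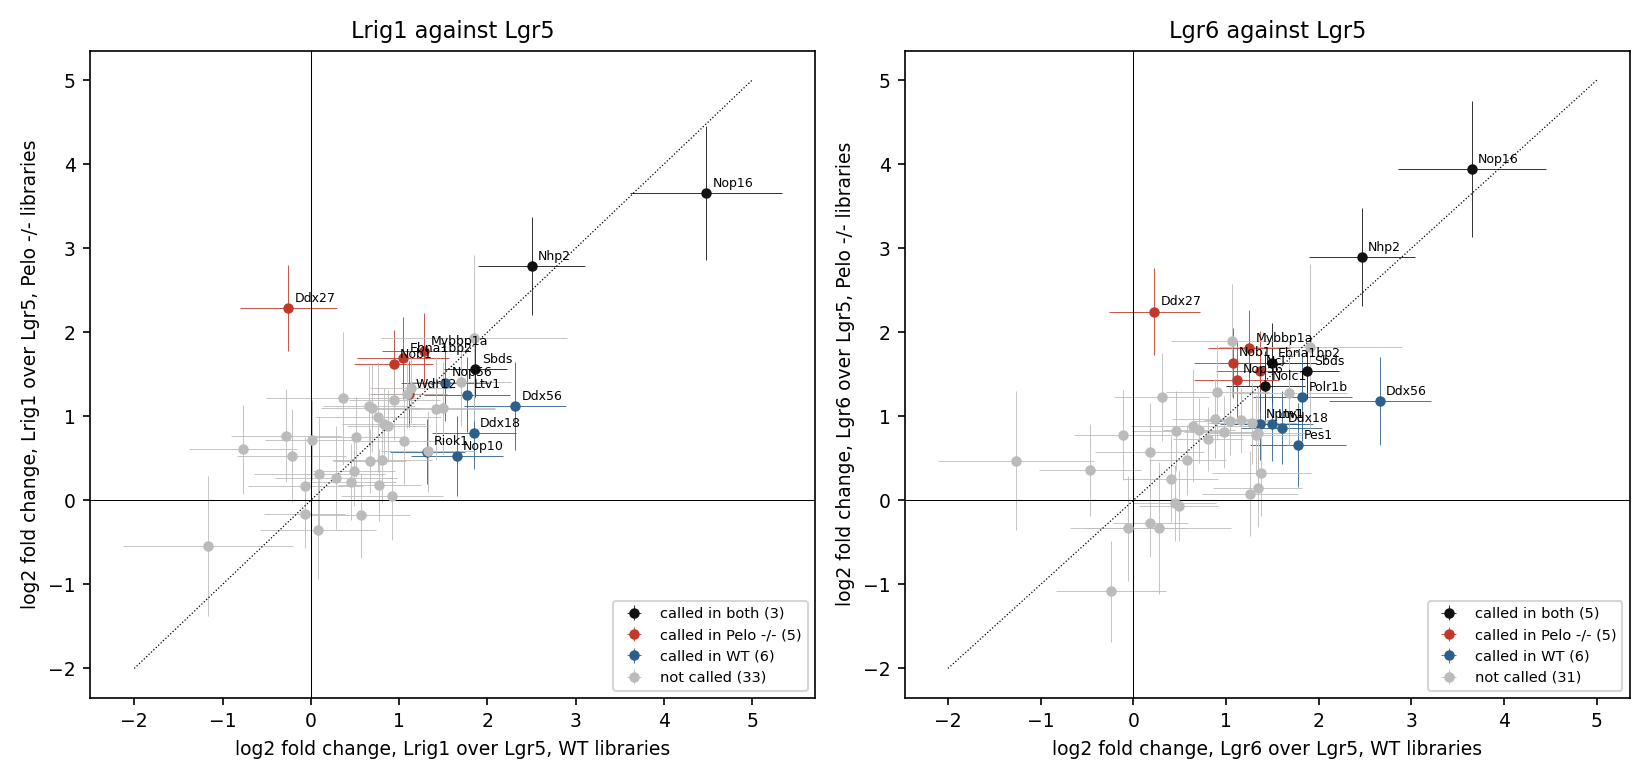
Each point is 1 of the 47 genes. The x axis is the log2 fold change in WT libraries and the y axis that in Pelo -/- libraries, for Lrig1 over Lgr5 (left) and Lgr6 over Lgr5 (right), with 1 standard error as bars and the line of equality dotted. Nop16 and Nhp2 lie far out along the line in both panels, and Ddx27 lies high on the y axis only.

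WT Lrig1 and WT Lgr6 cells were not told apart by any member. No member was called by edgeR, DESeq2 or limma-voom, none passed an unadjusted p of 0.05 (0.881% of all genes did as higher and 3.79% as lower), and 0% of all genes were called in either direction. In sign, 22 members were higher in value, as were 34.1% of all genes and 47.4% of those of at least 5 CPM. The members' median difference of Lrig1 over Lgr6 was -0.06, with -0.34 over all genes tested. The smallest p-values belonged to Rrp1, Fbl and Ncl, all lower in value in Lrig1 cells. Rrp1, a large subunit factor, had 18.5 and 17.5 CPM in WT Lrig1 and 24, 64.6 and 34 CPM in WT Lgr6 libraries, a difference of -1.18 ± 0.64 (edgeR unadjusted p = 0.0769, adjusted p = 1). Ncl had 328 and 268 CPM in WT Lrig1 and 398, 562 and 495 CPM in WT Lgr6 libraries, a difference of -0.70 ± 0.54. The groups did not overlap for 2 members that were higher and 7 that were lower, where 5.85% and 12.8% of all genes, and 10.9% and 10.6% of those of at least 5 CPM, did not overlap in those directions. With 2 WT Lrig1 libraries and a median standard error of 0.54 log2 units for the members, differences of this size were not detectable here.

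The genotype comparison asks whether loss of Pelo changes the pathway within each sorted population. No member was called in any of the 3 populations by edgeR. In Lrig1 cells 0 of 47 were called in either direction, as was 0% of all genes, and none passed an unadjusted p of 0.05, where 1.92% of all genes did as higher and 1.72% as lower. DESeq2 and limma-voom called 0 as well. The median of Pelo -/- over WT was 0.04 (all genes -0.02), and 26 members were higher in value, as were 48.2% of all genes and 43.4% of those of at least 5 CPM. The groups did not overlap for 6 members that were higher and 6 that were lower, against 8.17% and 10.7% of all genes and 8.6% and 15.6% of those of at least 5 CPM. The smallest p-values were those of Nop16, Rrp1 and Pes1. Nop16 had 106, 111 and 46.3 CPM in Pelo -/- and 148 and 203 CPM in WT Lrig1 libraries, a difference of -0.99 ± 0.79 (edgeR unadjusted p = 0.222). Rrp1 had 40.2, 30.1 and 22.4 CPM in Pelo -/- and 18.5 and 17.5 CPM in WT Lrig1 libraries, a difference of 0.78 ± 0.63, and Pes1 had 44.1, 35.5 and 66.3 CPM in Pelo -/- and 32.5 and 27.6 CPM in WT Lrig1 libraries, a difference of 0.70 ± 0.57. None of the 3 pairs of groups overlapped, although each difference was close to its standard error.

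In Lgr6 cells 0 of 47 members were called by edgeR, DESeq2 or limma-voom, 0% of all genes were, and 0 members passed an unadjusted p of 0.05, where 0.559% of all genes did as higher and 3.32% as lower. The median of Pelo -/- over WT was -0.12, with -0.27 over all genes tested and -0.03 over genes of at least 5 CPM, and 18 members were higher in value, as were 34.8% of all genes and 46.5% of those of at least 5 CPM. Tsr1 had 14, 9.44 and 4.09 CPM in Pelo -/- and 2.45, 5.69 and 1.86 CPM in WT Lgr6 libraries, a difference of 1.46 ± 0.84 (edgeR unadjusted p = 0.0961). Rrp1b, a large subunit factor related to Rrp1, had 3.34, 9.44 and 2.55 CPM in Pelo -/- and 7.4, 26.3 and 6.98 CPM in WT libraries, a difference of -1.41 ± 0.80 (unadjusted p = 0.09). Both pairs of groups overlapped, and WT Lgr6 replicate 2 held the highest value of Rrp1b. Rrp8, a nucleolar methyltransferase, was apart, with 43.7, 30.6 and 51.5 CPM in Pelo -/- and 23.9, 29.6 and 25.7 CPM in WT libraries and a difference of 0.67 ± 0.52. It was 1 of 2 members whose Pelo -/- libraries were all higher, and 0 were all lower, where 2.5% and 5.74% of all genes were, and 4.78% and 4.09% of those of at least 5 CPM.

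In Lgr5 cells edgeR again called 0 of 47 members, where 0.0197% of all genes were called higher and 0% lower. At an unadjusted p of 0.05, 2 members were higher and 2 lower, against 3.89% and 2.36% of all genes and 8.59% and 1.99% of those of at least 5 CPM. The groups did not overlap for 0 members that were higher and 2 that were lower, against 3.8% and 4.41% of all genes and 8.41% and 1.68% of those of at least 5 CPM. The members' median was -0.09, where that of genes of at least 5 CPM was 0.27 and that of all genes -0.14, and 21 members were higher in value, as were 43.9% of all genes and 67.6% of those of at least 5 CPM. Without WT Lgr5 replicate 3 it was -0.37, and still no member was called by edgeR. The satellite-like share, which was 1.72% to 9.42% in Pelo -/- and 4.08% to 25.4% in WT Lgr5 libraries, differs between these libraries. Summed melanocyte markers were at 148 to 334 CPM in Pelo -/- and 64.1 to 134 CPM in WT Lgr5 libraries, without overlap, and keratinocyte markers at 7413 to 12338 CPM and 4628 to 7858 CPM, with overlap. The part of these in the members' values was not tested.

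Ddx27 was the member with the smallest p in the genotype comparisons. It had 3.99, 8.08 and 7.35 CPM in Pelo -/- and 37.7, 26.8 and 12.2 CPM in WT Lgr5 libraries, means of 6.48 ± 2.18 and 25.6 ± 12.7 CPM (SD, n = 3 each). The groups did not overlap. The log2 difference was -1.98 ± 0.51 (edgeR adjusted p = 0.269 over all genes). DESeq2 gave -2.12 with an adjusted p of 0.00134, and over the 15 alternatives the adjusted p ran between 0.00134 and 0.988, with only DESeq2 past the threshold. In Lrig1 and Lgr6 cells its differences between genotypes were 0.56 ± 0.56 and 0.04 ± 0.49.

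Nat10, which acetylates cytidines of small subunit RNA, had 13.1, 4.96 and 19.2 CPM in Pelo -/- and 24.7, 54.7 and 19.8 CPM in WT Lgr5 libraries. The highest Pelo -/- value was just under the lowest WT value. The difference was -1.41 ± 0.54 (edgeR unadjusted p = 0.015, adjusted p = 0.654), and no alternative called it. Members higher in value in Pelo -/- Lgr5 cells included Utp15, a processome protein needed for transcription of ribosomal DNA, with 47.7, 14.6 and 39 CPM in Pelo -/- and 19.4, 22.4 and 5.03 CPM in WT libraries. Its difference was 1.11 ± 0.51 (adjusted p = 0.769), and the groups overlapped. Pes1 had 61.4, 13 and 15.2 CPM in Pelo -/- and 21, 15.1 and 7.16 CPM in WT libraries, a difference of 1.05 ± 0.51 in which 1 Pelo -/- library stood far above the rest.

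The interaction tests whether the Pelo effect differs between populations. For Lrig1 minus Lgr5 and for Lgr6 minus Lgr5, edgeR called 0 of 47 members and 0% of all genes in both directions. At an unadjusted p of 0.05, 1 member was higher in each and 0 were lower, against 2.57% of all genes higher and 2.74% lower for Lrig1 minus Lgr5, and 1.23% and 3.56% for Lgr6 minus Lgr5. Of the genes of at least 5 CPM, 1.05% and 1.03% were higher at that p and 4.93% and 5.57% lower. In sign, 24 and 19 members were higher in value, as were 52% and 40.7% of all genes and 33.2% and 33.5% of those of at least 5 CPM. The member past the unadjusted threshold was Ddx27 in both, with 2.54 ± 0.76 for Lrig1 minus Lgr5 (edgeR adjusted p = 0.777) and 2.02 ± 0.70 for Lgr6 minus Lgr5 (adjusted p = 0.822). DESeq2 called it in the first (log2 difference 2.74, adjusted p = 0.0258, within a range of 0.0258 to 1 over the 20 alternatives) and limma-voom in neither. The 2 tests share the Lgr5 libraries. The calls of Ddx56 and Ddx18 in WT cells alone are not shown to differ from Pelo -/- cells, since their interactions for Lrig1 were -1.20 ± 0.77 and -1.05 ± 0.64 (edgeR adjusted p = 0.96 and 0.957).

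**Figure D5:**
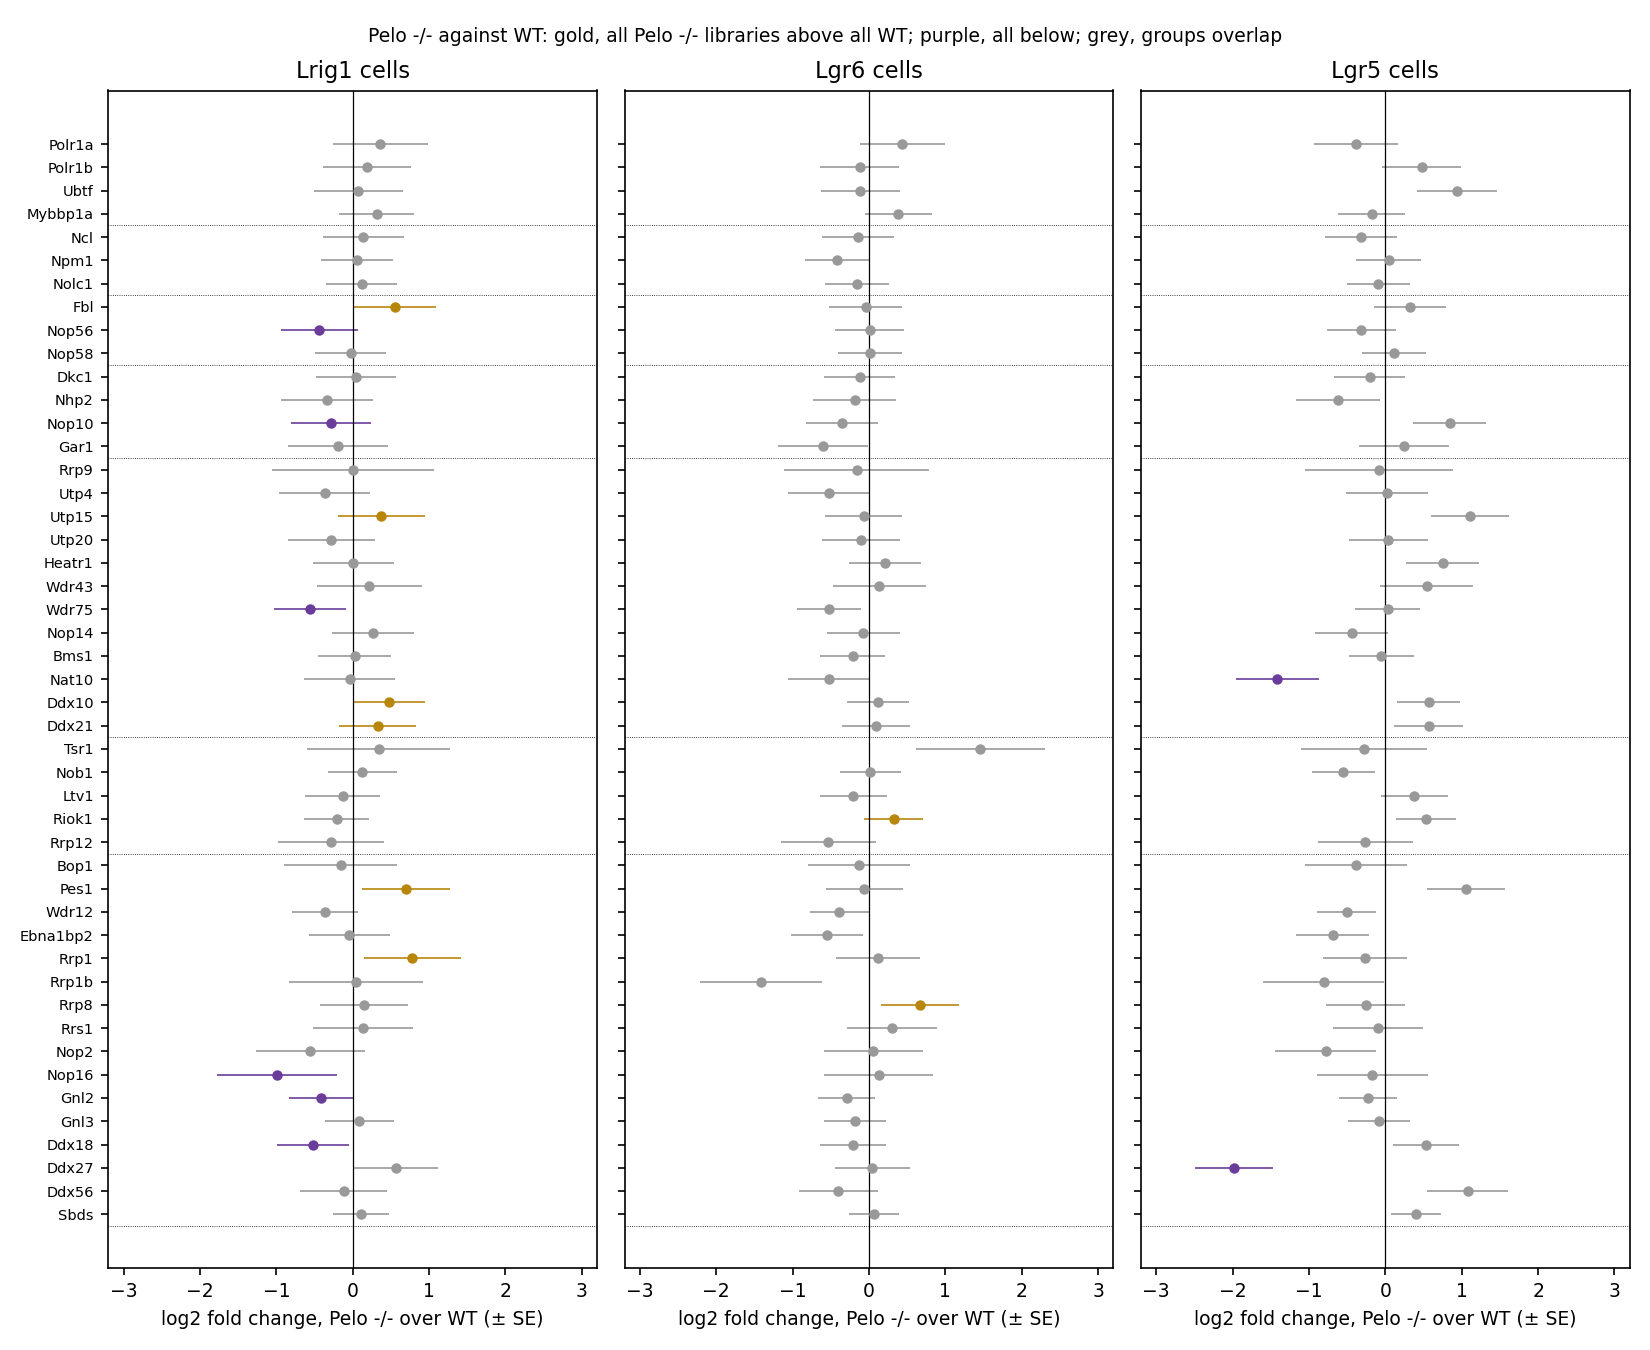
Rows are the 47 genes by role, and each point is the log2 fold change of Pelo -/- over WT with 1 standard error, in Lrig1 (left), Lgr6 (middle) and Lgr5 cells (right). Gold and purple mark genes whose Pelo -/- libraries are all above or all below the WT libraries, and grey marks overlap. Most bars cross 0, and Ddx27 in Lgr5 cells, at -1.98, lies farthest out.

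Other genes of the pathway, taken from lists that the members do not belong to, also held calls between populations. Of 94 other ribosome assembly factors, 11 rose in Lrig1 and 14 in Lgr6 cells over Lgr5 cells in Pelo -/- mice, and 19 and 21 in WT mice, with 0 falling. These are 11.7% and 14.9% in Pelo -/- and 20.2% and 22.3% in WT mice, against 15.1%, 18.8%, 24.1% and 27.9% of the genes of at least 5 CPM in the same order, so the share was below that background in each contrast. Brix1, a large subunit factor, rose by 2.98 ± 0.44 in WT Lrig1 and 2.19 ± 0.41 in WT Lgr6 cells, and Mrto4 by 2.44 ± 0.55 and 2.90 ± 0.56 in the Pelo -/- contrasts (edgeR adjusted p = 0.00583 and 0.00105). Of 12 further genes of RNA polymerase I, including subunits shared with polymerase III, 4 and 3 rose in Pelo -/- Lrig1 and Lgr6 cells (33.3% and 25%) and 4 and 4 in WT cells (33.3% each). Rrn3, the factor that couples the polymerase to the promoter, rose by 2.38 ± 0.52 and 2.31 ± 0.52 in Pelo -/- and by 2.21 ± 0.55 and 1.68 ± 0.51 in WT cells. Of 14 genes of the RNA exosome and trimming, 3 and 4 rose in Pelo -/- (21.4% and 28.6%) and 6 and 7 in WT cells (42.9% and 50%). Of the 86 cytosolic ribosomal protein genes, 17 and 25 rose in Pelo -/- cells (19.8% and 29.1%), with medians of 0.98 and 1.00, and 42 and 65 in WT cells (48.8% and 75.6%), with medians of 1.47 and 1.74. The difference between the lists was not tested.

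In the genotype comparisons edgeR called no gene of these lists. In Lgr5 cells the medians of Pelo -/- over WT were 0.55 for the ribosomal proteins, 81 of 86 of them higher in value, and 0.21 for the other assembly factors, 58 of 94 higher in value, beside -0.09 for the members. In Lgr6 cells they were -0.23 and -0.08, beside -0.12 for the members.

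Of 11 genes of the Myc network, which is known to drive transcription of the pathway, Myc itself was not called between the populations by edgeR. It had 194, 197 and 177 CPM in Pelo -/- Lrig1 and 209, 229 and 214 CPM in Pelo -/- Lgr6 libraries, against 204, 136 and 137 CPM in Pelo -/- Lgr5 libraries. The Lrig1 and Lgr5 values overlap and the Lgr6 values lie just above, with log2 differences of 0.25 ± 0.32 and 0.45 ± 0.32. In WT libraries Myc had 171 and 179 CPM in Lrig1 and 205, 118 and 162 CPM in Lgr6 cells, against 117, 157 and 161 CPM in Lgr5 cells. There the Lrig1 values lie above the Lgr5 ones and the Lgr6 values overlap them, with log2 differences of 0.27 ± 0.36 and 0.15 ± 0.32. Mycn ran the other way. It had 0.218, 0.362 and 0.311 CPM in Pelo -/- Lrig1 and 0.117, 1.19 and 3.13 CPM in Pelo -/- Lgr6 libraries, against 59.2, 26.5 and 12.5 CPM in Pelo -/- Lgr5 libraries. It fell, with log2 differences of -6.76 ± 1.48 and -4.45 ± 1.29 (edgeR adjusted p = 0.00695 and 0.0328). WT Lrig1 libraries had 2.82 and 2.76 CPM of Mycn and WT Lgr6 libraries 0.537, 3.02 and 0.155 CPM. WT Lgr5 libraries had 54.8, 144 and 1.09 CPM, so both WT comparisons overlapped through WT Lgr5 replicate 3. For WT Lrig1 over WT Lgr5, edgeR called 0 genes of the network lower, Mycn included. Mycl, by contrast, was higher in Lrig1 and Lgr6 cells, with differences of 1.98 ± 0.63 and 2.17 ± 0.63 in Pelo -/- and 2.67 ± 0.68 and 2.24 ± 0.64 in WT cells, of which the Pelo -/- Lrig1 value was not called (edgeR adjusted p = 0.0558).

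Promoter sequences from RefSeq (GRCm38.p6), 250 bases before to 50 bases after each annotated start, were found for 41 of the 48 members. They were searched on both strands for the E-box CACGTG, which Myc and other basic helix-loop-helix proteins bind, and for CCGGAAGT, a form of the ETS family's site. The E-box was present in 8 of the 41 (19.5%) and in 8.09% of 27025 genes with a promoter in the table, and the ETS letters in 9 (22%) and 4.31%. TATAAA was in 2 (4.88%) and 15.7%. These are matches of letters, not sites shown to be bound. The 27025 genes were not limited to those expressed in these cells, so a difference from genes of like level was not tested. The promoters below include those of Nhp2 and Nop16, called in all 4 population contrasts, while Sbds, also called in all 4, had none. The others are those of Ddx27, the member with the smallest p between genotypes, and of Ltv1, which holds both motifs. Tsr1 and Utp4 also hold both, and edgeR called them in none of the 4 contrasts. Capitals mark E-box and ETS matches, and each sequence runs 5′ to 3′ on the gene's strand.
Nhp2 (chr11:51619523-51619822, plus strand): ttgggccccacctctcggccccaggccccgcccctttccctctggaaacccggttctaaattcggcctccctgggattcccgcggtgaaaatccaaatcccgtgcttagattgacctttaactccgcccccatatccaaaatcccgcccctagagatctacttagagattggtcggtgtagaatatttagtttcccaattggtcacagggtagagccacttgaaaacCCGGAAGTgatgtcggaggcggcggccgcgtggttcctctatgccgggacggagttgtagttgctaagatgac
Nop16 (chr13:54590025-54590324, minus strand): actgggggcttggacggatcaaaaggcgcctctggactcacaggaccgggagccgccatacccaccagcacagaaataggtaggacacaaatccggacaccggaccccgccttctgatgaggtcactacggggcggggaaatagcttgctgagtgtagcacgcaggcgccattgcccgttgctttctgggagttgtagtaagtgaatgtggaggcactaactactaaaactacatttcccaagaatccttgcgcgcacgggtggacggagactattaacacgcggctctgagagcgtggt
Ddx27 (chr2:167015063-167015362, plus strand): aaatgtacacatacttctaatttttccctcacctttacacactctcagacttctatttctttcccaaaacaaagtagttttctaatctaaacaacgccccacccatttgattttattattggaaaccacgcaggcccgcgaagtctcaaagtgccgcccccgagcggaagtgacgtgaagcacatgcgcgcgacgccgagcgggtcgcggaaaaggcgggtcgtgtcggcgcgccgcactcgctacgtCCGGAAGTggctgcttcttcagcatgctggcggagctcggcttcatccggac
Ltv1 (chr10:13193088-13193387, minus strand): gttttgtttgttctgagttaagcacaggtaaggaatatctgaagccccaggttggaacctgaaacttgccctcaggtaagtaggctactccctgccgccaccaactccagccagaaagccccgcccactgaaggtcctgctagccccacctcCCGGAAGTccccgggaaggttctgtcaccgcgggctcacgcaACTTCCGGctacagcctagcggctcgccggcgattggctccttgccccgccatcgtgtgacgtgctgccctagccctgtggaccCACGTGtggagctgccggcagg
In Nhp2 the ETS letters begin 23 bases before the start, and in Ddx27 they begin 2 bases before it. Ltv1 holds them at 2 places, beginning 98 and 56 bases before the start, and its E-box begins 28 bases after the start. The Nop16 window holds neither motif, although Nop16 had the largest differences between populations of any member. Of the 19 members called between populations, Sbds and Npm1 had no promoter sequence here and were not searched. Among the rest, Mybbp1a, Pes1 and Ltv1 held the E-box, and Nhp2, Ddx27, Ebna1bp2 and Ltv1 the ETS letters. Over all 41 members with a promoter, called or not, 8 (19.5%) and 9 (22%) held them. Whether called members differ from the others in this was not tested.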

How the data were processed

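Full-length cDNA libraries from 1000 sorted GFP+ cells each were sequenced, 17 in 6 groups. The authors deposited raw read counts per Ensembl gene, 1 column per library; STAR, edgeR, GRCm38 and mm10 are named in the submitters' processing notes, and no source used here gives the counter, the strand setting or the treatment of shared reads. Gene symbols came from GENCODE M21, which matched 48144 of 48820 identifiers. The members and the other gene lists were chosen with earlier results of these data known.

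Genes were kept by edgeR's filterByExpr (minimum count 10, minimum total 15), which left 30405. All 17 libraries were fitted with 1 coefficient per group, TMM factors and robust quasi-likelihood dispersions (R 4.3.3, edgeR 4.0.16), and p-values were adjusted by Benjamini-Hochberg over all genes, with 0.05 as threshold, in each of 10 comparisons. Differences are log2 fold changes ± the standard error from the fit. The fit was tested on simulated data with 200 changed genes and a smaller dispersion than the 0.537 estimated for these libraries. That test therefore does not show how the fit performs at their spread. Alternatives were DESeq2 1.42.0, limma-voom (limma 3.58.1), RLE factors, other filters, nuclear protein-coding genes alone, the compared groups alone, a replicate block and each library left out. Total counts with no composition factor were added after seeing the data. Depth ran between 9647507 and 28098841 counts, and the number of libraries and their spread limit precision more than counting error does.

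Members named with values were, per comparison, the called ones with the smallest p (up to 8 per direction), 3 with the smallest p per direction where none was called, a fixed set of members per role, and those with extreme levels or spread. Of the other lists, up to 4 genes each with the smallest p were named. Ddx27 in comparisons beyond these, and Wdr43, Ddx10, Ddx21, Rrp12 and Tsr1, were named after their values were seen. No 2 libraries of a group agreed within sampling noise.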

Additional observations from a re-analysis of the deposited data

How the results depend on the processing

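The members' counts of calls depended on scaling, tool and single libraries, and the cause was not tested. In Pelo -/- cells total counts (added after seeing the data) gave 3 in place of 8 for Lrig1 and 2 in place of 10 for Lgr6, and single libraries left out gave 5 to 12 in both. For Lgr6 over Lgr5 in WT cells, 11 became 7 with DESeq2, and 4 with RLE factors, with a mean of at least 5 CPM, with the compared groups alone and with total counts, and ran between 3 and 14 with 1 library left out. For Lrig1 over Lgr5 in WT cells, 9 became 3 with the compared groups alone and 2 with total counts, and ran between 3 and 13. With total counts the members' median for Lrig1 over Lgr5 in WT cells turned to -0.076. Alternatives also called 29 pairs of a member and a comparison that edgeR did not, over 17 members. All were higher between populations, except 1 lower member for Lgr6 over Lgr5 in Pelo -/- cells (Gar1, with DESeq2 and with a mean of at least 5 CPM), and, with DESeq2, 1 lower in Pelo -/- Lgr5 cells and 1 higher in the Lrig1 minus Lgr5 interaction (both Ddx27). Of the 38 calls, 36 were kept by limma-voom, 37 with protein-coding genes alone, 31 with no filter, 30 by DESeq2, 24 with RLE factors and 11 with total counts, and 8 were kept under every alternative run. Same-numbered libraries of the 2 genotypes correlated between -0.01 and 0.19 in their deviations, and differently numbered ones between -0.22 and 0.09. The numbers were not taken as pairs in the main fit, and whether they mark shared batches was not tested. A replicate block gave 10 calls for Lrig1 and 10 for Lgr6 in Pelo -/- cells, 8 and 16 in WT cells, and 0 in the genotype comparisons. The members' median for Pelo -/- over WT in Lgr6 cells was -0.12, and 0.05 with RLE factors. Depth did not keep any member from being counted, but 2 or 3 libraries per group and the wide spread among Lgr5 libraries limit what could be called.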
